A study of Mus musculus with 4 samples.

Results

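Genes of prostaglandin synthesis, breakdown, uptake and signalling were followed in the colon mucosa of intestine-specific Vhl knockout mice and floxed controls, on wild-type Apc and in the Min model of intestinal tumours. The genes were Ptgs2, Ptges, Ptges2, Ptges3, Hpgd, Slco2a1, Ptger1, Ptger2, Ptger3 and Ptger4, and were chosen by name for their roles in the pathway of prostaglandin E2. Of these 10 genes, 9 had at least 1 probe set that the platform annotation gives to that gene alone, with 19 probe sets in all, among 18194 genes measured in this way. Ptges3 had none: both of its probe sets also carry the symbol of a Ptges3 pseudogene, so no value is given for it. RNA came from mucosa scraped off the colon of 129S6/SvEv mice aged 5 weeks and was measured on an Affymetrix array, with 1 array per genotype and 4 arrays in all. The genotypes were VhlΔIE (intestine-specific Vhl knockout), VhlF/F (floxed Vhl without deletion), VhlΔIE/Apcmin/+ (the same knockout with Apcmin/+, the Min allele) and VhlF/F/Apcmin/+ (floxed Vhl with the Min allele). The design text lists 3 VhlΔIE, 4 VhlF/F, 5 VhlΔIE/Apcmin/+ and 3 VhlF/F/Apcmin/+ mice, and whether their RNA was pooled is not given in the sources used here. The promoter that drives Cre is not given there either. All 4 groups carried floxed Vhl alleles, and a scraping holds stromal and immune cells with intact Vhl beside the epithelium.

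Prostaglandins are lipid signals made from arachidonic acid, which phospholipases free from membranes. Cyclooxygenases turn it into prostaglandin H2, and terminal synthases turn that into prostaglandin E2, the main prostaglandin of the gut, which acts through the receptors EP1 to EP4. Uptake by the transporter encoded by Slco2a1 and oxidation by the enzyme encoded by Hpgd end the signal. In the intestine prostaglandin E2 is known for protecting and repairing the epithelium and for promoting adenoma growth in Apc mutant mice. VHL marks hypoxia-inducible factors (HIF) for degradation, and cells without it keep these factors when oxygen is present.

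The promoters of the members that differed most are shown because these genes were at least 2-fold apart by Vhl status, with that of Ptges2, a synthase that was not, beside them. Each is the stretch from 250 bases before to 50 bases after a transcription start in RefSeq on GRCm38.p6, read 5′ to 3′ along the gene. Capitals mark ACGTG or GCGTG on either strand, the core letters of the hypoxia response element to which HIF binds, so that a match on the opposite strand appears as CACGT or CACGC. The Ptgs2 promoter lies at chr1:150099781-150100080 on the plus strand, that of Ptges at chr2:30903248-30903547 on the minus strand, that of Ptger3 at chr3:157566626-157566925 on the plus strand and that of Ptges2 at chr2:32395640-32395939 on the plus strand.
Ptgs2: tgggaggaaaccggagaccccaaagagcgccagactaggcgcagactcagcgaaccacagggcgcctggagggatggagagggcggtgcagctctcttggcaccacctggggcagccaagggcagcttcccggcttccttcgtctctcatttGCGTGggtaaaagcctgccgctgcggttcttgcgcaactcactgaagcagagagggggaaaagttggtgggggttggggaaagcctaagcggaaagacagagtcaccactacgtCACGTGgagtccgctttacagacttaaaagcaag
Ptges: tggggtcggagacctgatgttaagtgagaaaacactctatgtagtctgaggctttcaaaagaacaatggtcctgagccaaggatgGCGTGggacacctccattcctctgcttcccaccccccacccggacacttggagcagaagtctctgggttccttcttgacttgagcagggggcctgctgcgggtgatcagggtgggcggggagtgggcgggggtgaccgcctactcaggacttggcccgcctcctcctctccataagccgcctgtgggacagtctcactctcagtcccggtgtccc
Ptger3: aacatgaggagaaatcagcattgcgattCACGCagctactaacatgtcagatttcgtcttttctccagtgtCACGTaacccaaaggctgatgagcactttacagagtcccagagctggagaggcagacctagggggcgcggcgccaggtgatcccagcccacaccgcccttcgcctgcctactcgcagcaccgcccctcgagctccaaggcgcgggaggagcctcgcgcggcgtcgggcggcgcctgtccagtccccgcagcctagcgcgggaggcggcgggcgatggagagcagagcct
Ptges2: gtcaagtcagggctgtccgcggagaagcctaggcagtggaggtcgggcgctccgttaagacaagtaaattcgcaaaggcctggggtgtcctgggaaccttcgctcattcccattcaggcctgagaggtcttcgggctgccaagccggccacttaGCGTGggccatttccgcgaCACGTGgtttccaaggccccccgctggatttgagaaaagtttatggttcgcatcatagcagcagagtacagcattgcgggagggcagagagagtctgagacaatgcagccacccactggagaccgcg

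The Ptgs2 promoter held GCGTG from -98 to -94, counted from the start, and a CACGTG from base 17 to 22 in which ACGTG is read on both strands. The Ptges promoter held GCGTG from -165 to -161. Both matches of the Ptger3 promoter were on the opposite strand, GCGTG from -222 to -218 and ACGTG from -179 to -175. Ptges2, which differed little between the arrays, held GCGTG from -96 to -92 and a CACGTG from -77 to -72. CACGTG is also the E-box that clock and MYC family proteins recognise, so these overlapping matches have a second reading. A promoter was available for 9 members, all but Ptger1, and so also for Ptges3, which has no expression value. ACGTG or GCGTG was found on either strand in 7 of these 9, Ptges3 among them, against 43.8% of all 32851 promoters of the same length. The TATA box letters TATAAA were found in the Hpgd and Slco2a1 promoters, and in 13.6% of all promoters. CTTTGAT and CTTTGAA, letters bound by the TCF/LEF factors of the Wnt pathway, were found in 0 of the 9 member promoters, and in 3.73% and 5.14% of all promoters. A match is a description of the letters and no evidence of binding.

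The values are the deposited RMA values on the log2 scale, on which a difference of 1 is a 2-fold difference. With 1 array per genotype no single difference has a replicate check or a test. A gene was compared when its highest-mean probe set reached a log2 value of 6 on at least 1 array, which 8 of the members and 11871 of all genes did. Vhl itself read 7.03 in VhlΔIE and 8.40 in VhlF/F, and 6.56 in VhlΔIE/Apcmin/+ and 8.17 in VhlF/F/Apcmin/+. The 4 control probe sets for Cre recombinase read at least 7.41 on both knockout arrays and at most 4.45 on both floxed arrays. All 10 markers of colon epithelium reached 6 on each array, with median Vhl differences of -0.08 without and 0.03 with the Apc mutation. Of the 10, 6 were lower without and 5 with the Apc mutation. Those that differed most were Slc26a3, by -0.69 and -0.76, and Cdx2, by -0.62 and 0.67. Xist, the RNA of the inactive X chromosome, read 5.58 in VhlΔIE and 11.37 in VhlF/F, and 6.25 in VhlΔIE/Apcmin/+ and 11.83 in VhlF/F/Apcmin/+, so what sets Xist and Vhl status cannot be told apart in any Vhl difference below. The Y-linked Eif2s3y read 8.78 in VhlΔIE and 8.58 in VhlF/F, and 8.80 in VhlΔIE/Apcmin/+ and 7.27 in VhlF/F/Apcmin/+, so RNA of males was on each array. High Xist beside Y-linked RNA on both floxed arrays points to RNA of both sexes there, and so of more than 1 mouse. The knockout arrays held little Xist. The mix of sexes and Vhl status therefore cannot be told apart in the Vhl differences. The VhlF/F array also held liver transcripts, with Alb at 7.24 in VhlΔIE and 11.53 in VhlF/F. The 6 hepatocyte markers had a median Vhl difference of -3.21 without and 0.20 with the Apc mutation. The clock gene Dbp followed Vhl status too, at 5.86 in VhlΔIE and 9.37 in VhlF/F, and at 8.05 in VhlΔIE/Apcmin/+ and 10.74 in VhlF/F/Apcmin/+. With the Apc mutation Dbp was higher by 1.37 with floxed and by 2.20 with deleted Vhl, so this limit holds for the Apc comparisons as well. Another clock gene, Arntl, did not keep 1 sign with Vhl status, with differences of 0.60 without and -0.19 with the Apc mutation. Its Apc differences were -0.62 with floxed and -1.41 with deleted Vhl.

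**Figure D1:**
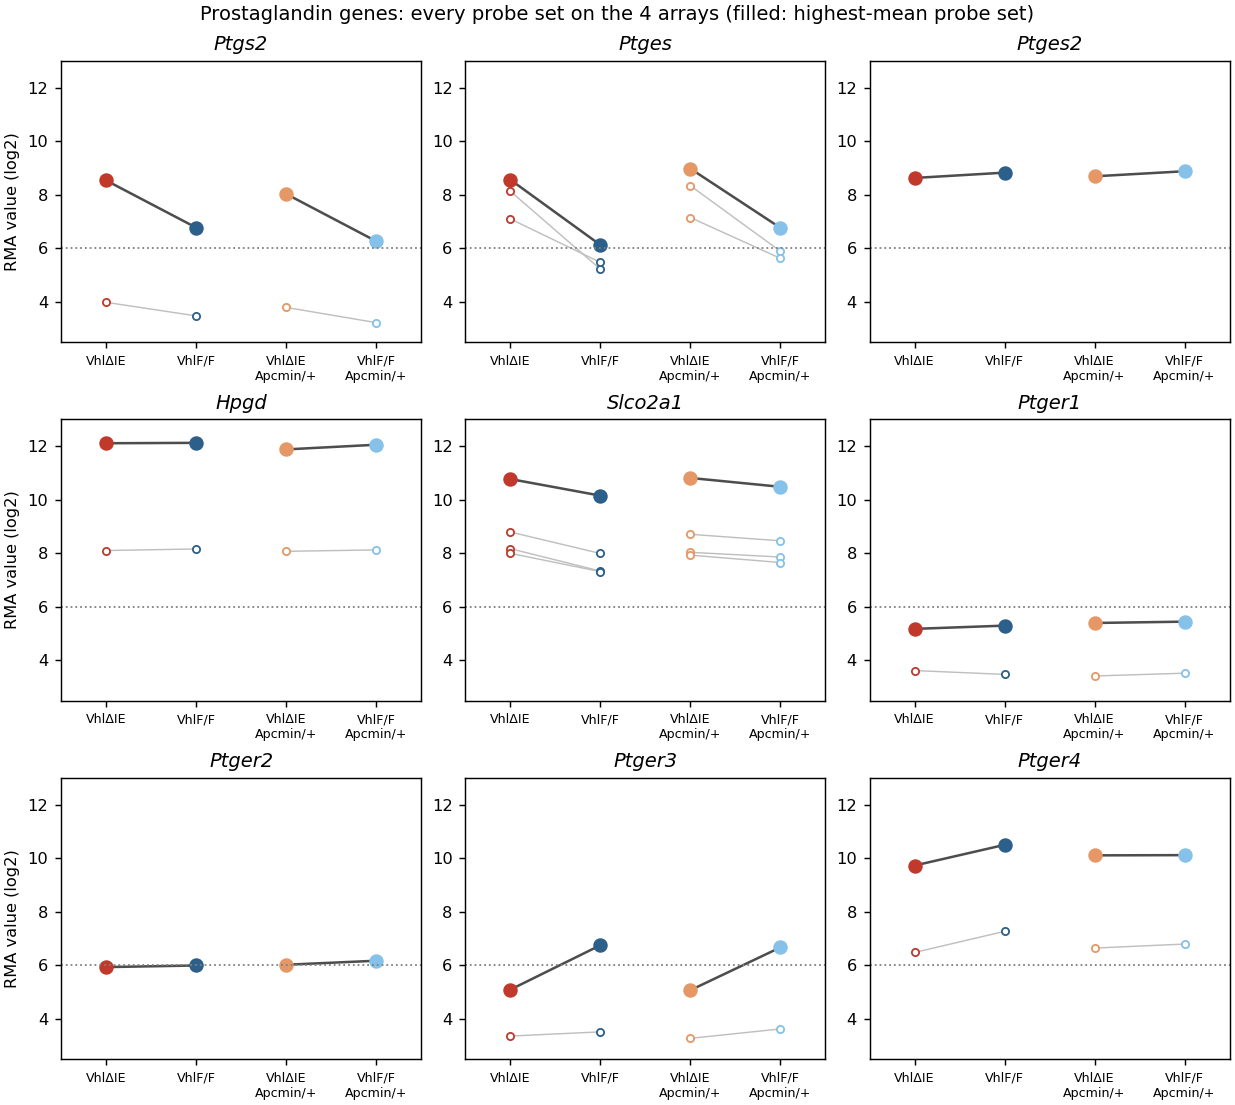
RMA values (log2, vertical axis) of all 19 probe sets of the 9 measured members on the 4 arrays, 1 point per probe set and array; filled points are the probe set with the highest mean, open points the others, lines join the Vhl knockout array to its floxed counterpart, and the dotted line marks 6. Ptges and Ptgs2 slope down from knockout to floxed in both pairs, Ptger3 slopes up, and Hpgd and Ptges2 are nearly level.

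The first comparison asks how intestinal loss of Vhl bears on these genes, on wild-type and on mutant Apc. The inducible enzymes that lead to prostaglandin E2 were higher in both knockout arrays. Ptges was 5.41-fold higher without the Apc mutation and 4.63-fold higher with it. Against the VhlF/F/Apcmin/+ array in place of the VhlF/F array, which held liver transcripts, Ptges was 3.47-fold higher in VhlΔIE. Apc status differs too in that comparison. Against the matching floxed array, Ptgs2 was 3.39-fold higher without the Apc mutation and by much the same factor with it. Ptger3, which encodes the EP3 receptor, was lower by 1.66 and 1.60 on the log2 scale. The constitutive synthase gene Ptges2 and the breakdown gene Hpgd differed by less than 0.25 in both backgrounds.

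In each background 2 members were at least 2-fold higher and 1 was at least 2-fold lower. Over all genes the shares past 2-fold were 2.27% higher and 1.60% lower in VhlΔIE against VhlF/F, and 2.82% higher and 1.52% lower in VhlΔIE/Apcmin/+ against VhlF/F/Apcmin/+. The same 3 genes passed in both backgrounds, as 1.58% of all genes did as higher and 0.733% as lower. Ptger3 reached 6 on the floxed arrays only, so it passed the threshold on level through the group where it is high. A linear model in limma with a Vhl term and an Apc term and no interaction, fitted to the 4 arrays with 1 residual degree of freedom, uses arrays of different Apc genotype as replicates for Vhl and so is no check across animals. At a Benjamini-Hochberg adjusted p threshold of 0.05, 2 members were higher by Vhl status and 1 was lower, against 3.64% and 2.27% of all genes. The limma adjusted p was 0.0321 for Ptges and for Ptgs2, with Vhl effects of 2.32 ± 0.09 and 1.76 ± 0.07 (SE, 4 arrays). For Slco2a1 the limma adjusted p was 0.0944. The 1 lower member was Ptger3, with a Vhl effect of -1.63. It entered the fit through the floxed arrays alone, so its p is not given and its call is no support. These SE and p reflect how the Vhl difference varied between the Apc backgrounds, with variance shared across genes, and not the spread between animals. For the Apc term limma called 0 genes, with 445 higher and 665 lower at an unadjusted p under 0.05, 1 and 1 of them members. The median difference of the 8 members was -0.04 without and -0.08 with the Apc mutation, and that of all genes was -0.02 and -0.02.

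Ptgs2 encodes cyclooxygenase 2, the inducible enzyme that commits arachidonic acid to prostaglandin synthesis. Its probe set 1417262_at read 8.54 in VhlΔIE and 6.78 in VhlF/F, and 8.04 in VhlΔIE/Apcmin/+ and 6.27 in VhlF/F/Apcmin/+. Both knockout arrays were above both floxed arrays. The Vhl difference was 1.76 without the Apc mutation and 1.77 with it, which placed Ptgs2 at ranks 81 and 108 from the top of 11871 genes. The second probe set, 1417263_at, stayed under 6 on all 4 arrays, at 3.99 in VhlΔIE and 3.48 in VhlF/F, and at 3.80 in VhlΔIE/Apcmin/+ and 3.23 in VhlF/F/Apcmin/+. That is within the range of the array's 27 bacterial control probe sets, which read 2.82 to 5.10, and its differences of 0.51 and 0.57 have the same sign as those of the brighter probe set. With the mean of both probe sets as the level of the gene, the differences were 1.13 and 1.17.

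Ptges encodes the microsomal prostaglandin E synthase that is induced together with cyclooxygenase 2 in inflammation. Its brightest probe set, 1449450_at, read 8.57 in VhlΔIE and 6.13 in VhlF/F, and 8.98 in VhlΔIE/Apcmin/+ and 6.77 in VhlF/F/Apcmin/+. Its differences of 2.44 and 2.21 ranked 34 and 60 from the top. All 3 Ptges probe sets were at least 2-fold higher in both knockouts. The probe set 1439747_at read 8.14 in VhlΔIE and 5.23 in VhlF/F, and 8.35 in VhlΔIE/Apcmin/+ and 5.90 in VhlF/F/Apcmin/+, and differed by 2.91 and 2.45. The probe set 1449449_at read 7.10 in VhlΔIE and 5.48 in VhlF/F, and 7.16 in VhlΔIE/Apcmin/+ and 5.63 in VhlF/F/Apcmin/+, and differed by 1.62 and 1.52. The floxed values of these last 2 probe sets lie under 6. Ptges2 encodes another membrane-bound enzyme of the same name, and its only probe set read 8.63 in VhlΔIE and 8.83 in VhlF/F, and 8.70 in VhlΔIE/Apcmin/+ and 8.88 in VhlF/F/Apcmin/+. Its differences were -0.20 and -0.19.

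**Figure D2:**
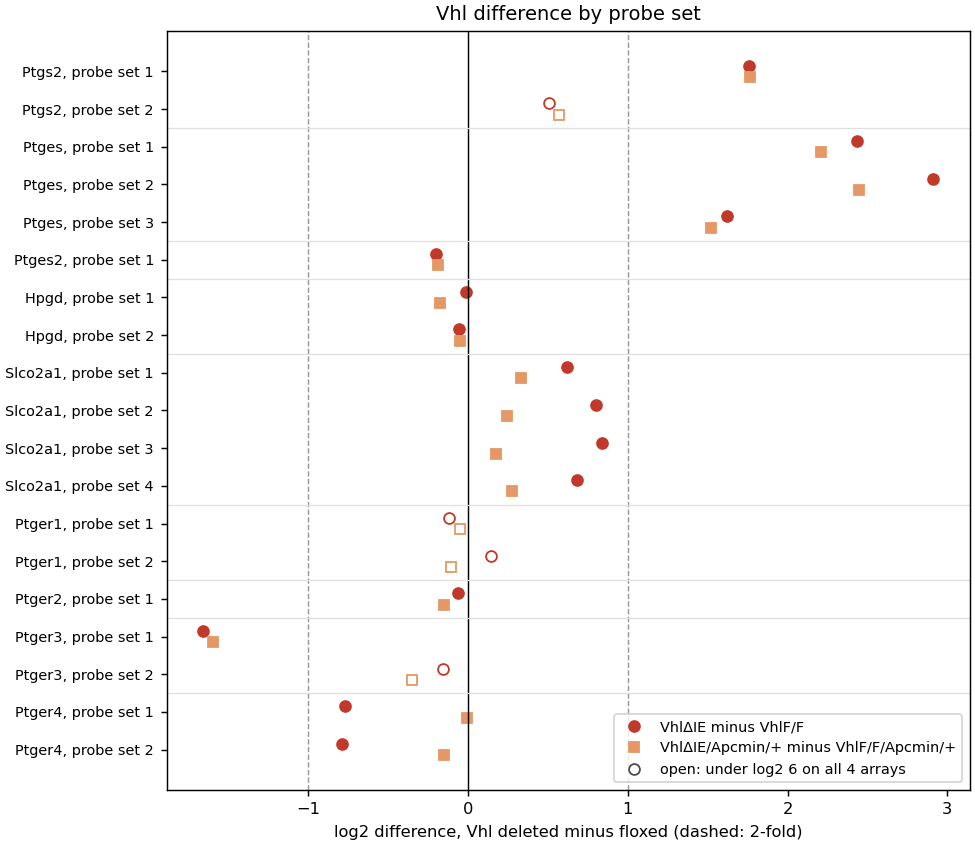
Log2 difference of the knockout array minus its floxed counterpart for each of the 19 probe sets (rows, numbered within a gene from the highest mean), as circles without and squares with the Apc mutation; open symbols did not reach 6 on any array and dashed lines mark 2-fold. The 3 Ptges probe sets lie between 1.52 and 2.91, and the 4 Slco2a1 probe sets lie above 0 in both backgrounds.

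The genes that end the signal differed less. Hpgd encodes 15-hydroxyprostaglandin dehydrogenase, which inactivates prostaglandin E2 and is a product of mature colonocytes. It read 12.11 in VhlΔIE and 12.13 in VhlF/F, and 11.88 in VhlΔIE/Apcmin/+ and 12.06 in VhlF/F/Apcmin/+, differences of -0.02 and -0.17. The probe set behind these values, 1419905_s_at, has a name that marks possible binding to transcripts of other genes. The other Hpgd probe set, 1419906_at, differed by -0.06 and -0.05.

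Slco2a1 encodes the prostaglandin transporter, which takes prostaglandins up from outside the cell. It read 10.78 in VhlΔIE and 10.16 in VhlF/F, and 10.82 in VhlΔIE/Apcmin/+ and 10.49 in VhlF/F/Apcmin/+, differences of 0.62 and 0.33. The 4 probe sets of Slco2a1 differed by 0.62 to 0.84 without the Apc mutation and by 0.18 to 0.33 with it, so all 4 shared the sign and none reached 2-fold. The gene ranked 692 from the top without the Apc mutation and 1715 with it.

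The receptors went different ways. Ptger3 encodes EP3, a receptor that lowers cyclic AMP, and its probe set 1450344_a_at read 5.09 in VhlΔIE and 6.75 in VhlF/F, and 5.07 in VhlΔIE/Apcmin/+ and 6.67 in VhlF/F/Apcmin/+. Both knockout values were under 6 and both floxed values above it. The differences ranked 52 and 53 from the bottom, and the floxed levels were 3.16-fold and 3.03-fold those of the knockouts. This call rests on 1 probe set, whose name marks several transcripts of one gene. The other Ptger3 probe set, 1425251_at, lay at 3.35 in VhlΔIE and 3.51 in VhlF/F, and at 3.27 in VhlΔIE/Apcmin/+ and 3.62 in VhlF/F/Apcmin/+. With values under 6 raised to 6, the Ptger3 differences were -0.75 and -0.67, and with the mean over both probe sets the gene did not reach 6.

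Ptger4 encodes EP4, which raises cyclic AMP and carries much of the effect of prostaglandin E2 on the intestinal epithelium. It read 9.72 in VhlΔIE and 10.50 in VhlF/F, and 10.10 in VhlΔIE/Apcmin/+ and 10.11 in VhlF/F/Apcmin/+. The difference was -0.77 without the Apc mutation and -0.01 with it. The second Ptger4 probe set, 1421073_a_at, differed by -0.79 and -0.15. In both probe sets the VhlF/F array had the highest value of the 4 and the VhlΔIE array the lowest.

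Ptger2 encodes EP2, the other receptor that raises cyclic AMP, and lay just inside the threshold on level. It read 5.93 in VhlΔIE and 5.99 in VhlF/F, and 6.02 in VhlΔIE/Apcmin/+ and 6.17 in VhlF/F/Apcmin/+, so only the arrays with mutant Apc reached 6. Ptger1 encodes EP1, a receptor that raises intracellular calcium, and lay outside that threshold. It read 5.18 in VhlΔIE and 5.30 in VhlF/F, and 5.40 in VhlΔIE/Apcmin/+ and 5.45 in VhlF/F/Apcmin/+. Its second probe set read at most 3.62. Neither gene differed by more than 0.15 with Vhl status in its brightest probe set.

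**Figure D3:**
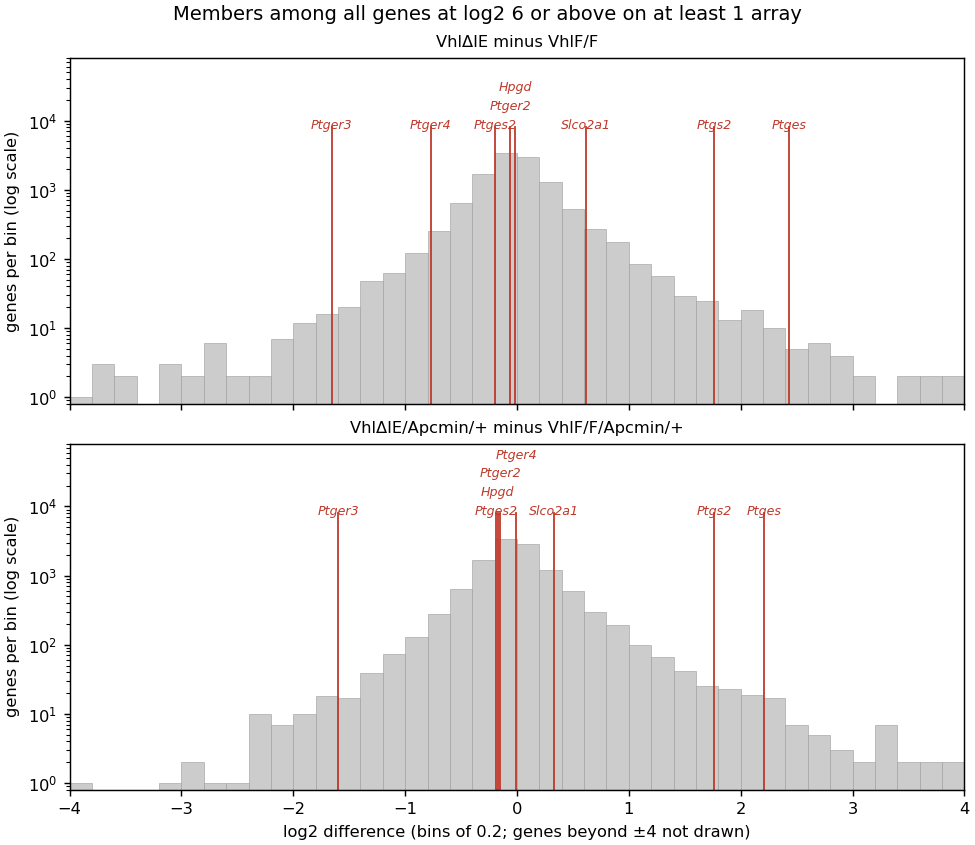
Number of genes (vertical axis, log scale) by log2 difference of the knockout minus the floxed array, in bins of 0.2, for all 11871 genes compared, without (upper panel) and with (lower panel) the Apc mutation; red lines mark the 8 members. Ptges and Ptgs2 stand in the upper tail and Ptger3 in the lower tail of both panels, and the other 5 members lie within 1 of zero.

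Transcripts of other cell types moved with the same arrays. In bulk tissue, more cells of a type and more RNA per cell cannot be told apart. Of 8 endothelial markers, 8 were higher in both knockouts, with medians of 1.16 and 0.89, and their summed linear signal was 3162 in VhlΔIE and 1330 in VhlF/F, and 3019 in VhlΔIE/Apcmin/+ and 1396 in VhlF/F/Apcmin/+. Slco2a1 and Ptgs2 can also be expressed by endothelium.

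Of 8 macrophage and dendritic cell markers, 8 were higher without and 7 with the Apc mutation, and their summed signal was 6262 in VhlΔIE and 4211 in VhlF/F, and 5589 in VhlΔIE/Apcmin/+ and 4750 in VhlF/F/Apcmin/+. Macrophages are a known source of both Ptgs2 and Ptges. The 7 fibroblast markers summed to 18720 in VhlΔIE and 15484 in VhlF/F, and to 17694 in VhlΔIE/Apcmin/+ and 19339 in VhlF/F/Apcmin/+, while 6 of the 7 were higher without and 4 with the Apc mutation, with medians of 0.51 and 0.15. Of 8 mast cell markers 4 reached 6 on any array and 3 of these were higher in each knockout, while the defining markers Cpa3, Tpsb2, Fcer1a and Ms4a2 stayed under 6. Mcpt1 and Mcpt2, mast cell proteases, were higher by 2.19 and 2.07 without and by 2.79 and 2.25 with the Apc mutation, and the 4 had median differences of 1.46 and 1.60. Kit, the brightest of the list, differed by -0.66 and -0.04. All 8 summed to 1023 in VhlΔIE and 1074 in VhlF/F, and to 1108 in VhlΔIE/Apcmin/+ and 796 in VhlF/F/Apcmin/+.

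Of 5 neutrophil markers on the array S100a8 alone reached 6, in both knockouts, and the list summed to 180 in VhlΔIE and 111 in VhlF/F, and to 174 in VhlΔIE/Apcmin/+ and 118 in VhlF/F/Apcmin/+. All 7 smooth muscle markers were lower in both knockouts, with medians of -0.62 and -0.47. Their sums were 21920 in VhlΔIE and 29904 in VhlF/F, and 20702 in VhlΔIE/Apcmin/+ and 27609 in VhlF/F/Apcmin/+. Ptger3 is known from smooth muscle and enteric neurons as well as from epithelium. The 5 neuron and glia markers summed to 438 in VhlΔIE and 472 in VhlF/F, and to 351 in VhlΔIE/Apcmin/+ and 425 in VhlF/F/Apcmin/+. The part of these cell types in the differences of Ptgs2, Ptges, Slco2a1 and Ptger3 was not tested.

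Tuft cells, epithelial cells known for making prostaglandin D2, had 4 of 7 markers at 6 or above on any array, of which 4 were lower without the Apc mutation and 2 with it. Their summed signal was 404 in VhlΔIE and 594 in VhlF/F, and 441 in VhlΔIE/Apcmin/+ and 466 in VhlF/F/Apcmin/+. Hpgds and Alox5 belong both to this list and to the wider pathway described next.

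The wider pathway was covered by 62 gene symbols, some of them older and newer names of 1 gene, of which 53 were found on the array and 35 reached 6. Of these 35, 2 were at least 2-fold higher and 1 lower in VhlΔIE against VhlF/F, and 2 were higher and 0 lower in VhlΔIE/Apcmin/+ against VhlF/F/Apcmin/+. Their median Vhl differences were 0.11 and 0.01. Ptgs1, the constitutive cyclooxygenase, was not analysed here.

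Among 14 enzymes that free arachidonic acid and reached 6, Pla2g4a, the cytosolic phospholipase A2 that feeds cyclooxygenase 2, differed by 0.11 and -0.05. Mgll, the monoacylglycerol lipase that releases arachidonic acid from an endocannabinoid, read 9.84 in VhlΔIE and 8.94 in VhlF/F, and 10.10 in VhlΔIE/Apcmin/+ and 8.27 in VhlF/F/Apcmin/+. Its differences were 0.89 and 1.83. Pla2g4f, a relative of Pla2g4a, differed by 1.25 and 0.11. Its VhlF/F value of 6.03, against 7.28 in VhlΔIE, was the lowest of the 4. Pla2g3, a secreted phospholipase A2, was lower by 1.04 without the Apc mutation and differed by -0.95 with it. Pla2g4d was under 6 on all arrays and differed by 0.72 and 1.26.

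Of the 4 other terminal synthases at 6 or above, 0 differed by 2-fold. Hpgds, the synthase of prostaglandin D2 in blood and tuft cells, differed most, by -0.68 and -0.76. It read 5.40 in VhlΔIE and 6.08 in VhlF/F, and 5.71 in VhlΔIE/Apcmin/+ and 6.47 in VhlF/F/Apcmin/+. Among 6 reductases, Cbr2, a carbonyl reductase, read 11.50 in VhlΔIE and 9.66 in VhlF/F, and 10.98 in VhlΔIE/Apcmin/+ and 9.63 in VhlF/F/Apcmin/+. It was higher by 1.84 and 1.34, and was the only gene of the 35 at least 2-fold apart in both backgrounds. Ptgr1, which reduces the product of Hpgd further, differed by -0.16 and -0.48. Abcc4, an exporter of prostaglandins, differed by 0.15 and -0.06.

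Of the other prostanoid receptors 4 reached 6, with 0 at 2-fold. Pparg, a nuclear receptor for fatty acid derivatives that include prostaglandin D2 products, differed most, by 0.63 and 0.84. The leukotriene and lipoxygenase arm had 6 genes at 6 or above and 0 at 2-fold. Dpep1, a dipeptidase that converts one leukotriene into another, had opposite signs, at -0.94 without and 0.44 with the Apc mutation. Alox12b, an epidermal lipoxygenase, stayed under 6 on all arrays and differed by 1.15 and 0.92.

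**Figure D4:**
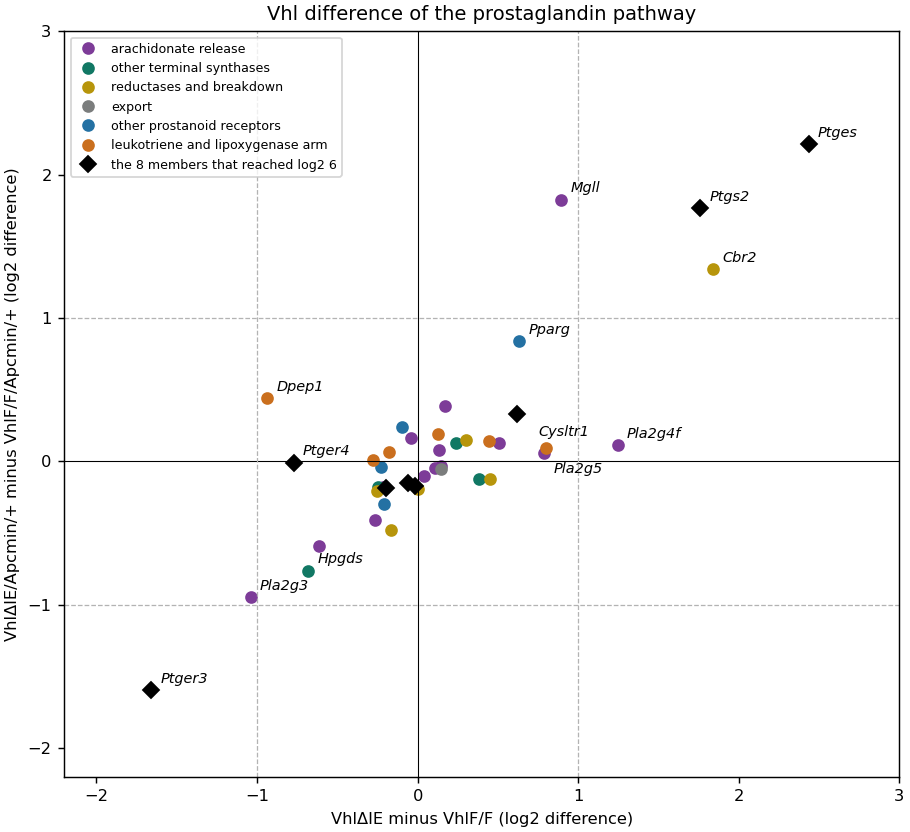
Log2 difference VhlΔIE minus VhlF/F (horizontal axis) against VhlΔIE/Apcmin/+ minus VhlF/F/Apcmin/+ (vertical axis), 1 point per gene, for the 8 members that reached 6 (black diamonds) and 35 other genes of the pathway, coloured by role; dashed lines mark 2-fold. Ptges, Ptgs2 and Cbr2 lie beyond 2-fold on both axes at the upper right, and Ptger3 alone does so at the lower left.

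The Apc mutation was compared next, first with floxed and then with deleted Vhl. No member was at least 2-fold apart in either comparison. Over all genes the shares past 2-fold were 0.118% higher and 0.901% lower in VhlF/F/Apcmin/+ against VhlF/F, and 0.202% higher and 0.118% lower in VhlΔIE/Apcmin/+ against VhlΔIE. The liver transcripts of the VhlF/F array enter the first of these: the 6 hepatocyte markers had median Apc differences of -3.34 with floxed and 0.01 with deleted Vhl. Dbp differed by 1.37 and 2.20. The part of either in the member differences was not tested. Each Apc comparison shares its arrays with the Vhl comparisons, so their values are not independent of those above. The member medians were -0.01 with floxed Vhl and 0.05 with deleted Vhl, and those of all genes were 0.00 and 0.00.

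Ptgs2 was at 6.27 in VhlF/F/Apcmin/+ and 6.78 in VhlF/F, and at 8.04 in VhlΔIE/Apcmin/+ and 8.54 in VhlΔIE. Its Apc differences were -0.51 and -0.50, ranks 377 and 172 from the bottom of 11871 genes. Ptges went the other way, at 6.77 in VhlF/F/Apcmin/+ and 6.13 in VhlF/F, and at 8.98 in VhlΔIE/Apcmin/+ and 8.57 in VhlΔIE. Its Apc differences of 0.64 and 0.41 ranked 81 and 212 from the top. The 3 Ptges probe sets had Apc differences of 0.15 to 0.67 with floxed and of 0.05 to 0.41 with deleted Vhl.

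Ptger4 changed sign, with an Apc difference of -0.38 with floxed and 0.38 with deleted Vhl, and its second probe set did the same at -0.47 and 0.16. Slco2a1 differed by 0.33 with floxed and 0.04 with deleted Vhl in its brightest probe set, and its other 3 probe sets by 0.34 to 0.52 and by -0.14 to -0.07. Hpgd differed by -0.07 and -0.23, Ptges2 by 0.05 and 0.06, Ptger2 by 0.18 and 0.09 and Ptger3 by -0.08 and -0.02. In the wider pathway 0 of 35 genes were 2-fold apart in either Apc comparison.

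**Figure D5:**
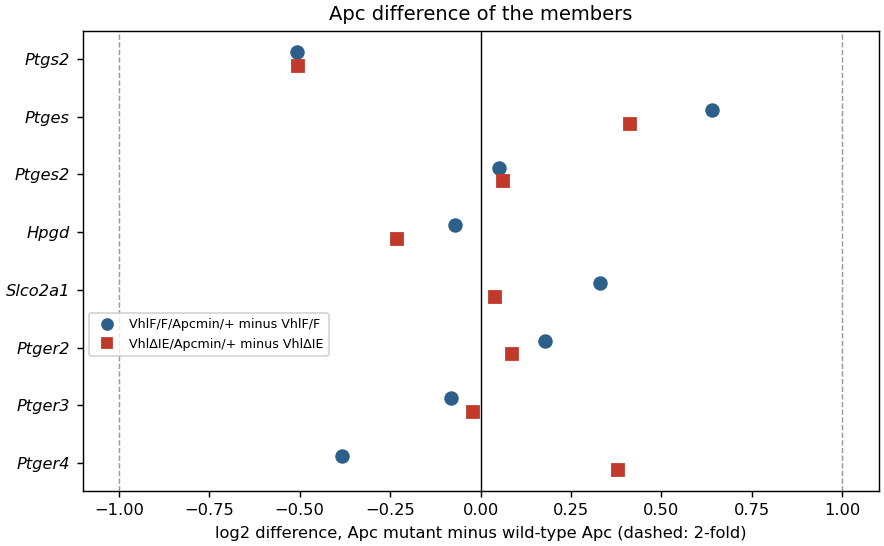
Log2 difference of the Apc mutant minus the Apc wild-type array for the 8 members compared, as circles with floxed and squares with deleted Vhl; dashed lines mark 2-fold. Each member lies between the dashed lines, Ptgs2 is near -0.5 in both, and Ptger4 lies on opposite sides of 0.

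The genes whose 4 values ran most like those of a member were found by the distance between profiles after each gene's own mean was removed, over 4 arrays and 11870 other genes. For Ptgs2 they were an immunoglobulin kappa variable gene, Fer1l4, Npas2, Kif23 and Socs3, at distances of 0.16 to 0.34, against a median distance of 1.87 over all genes. Ptges was at 1.18 from Ptgs2 and stood at place 510 in its order. For Ptges they were Bnip3, Ccl8, Slc7a9, Lgr5 and Prr16, at distances of 0.29 to 0.44, and Ptgs2 was at place 125. Bnip3 read 12.88 in VhlΔIE and 10.51 in VhlF/F, and 12.97 in VhlΔIE/Apcmin/+ and 10.99 in VhlF/F/Apcmin/+. For Hpgd they were Msl3, Taok3, Zfp945, Papolg and Mfap4, at distances of 0.01 to 0.02, and the median distance of all genes from Hpgd was 0.32. With 4 arrays many genes share a profile, so these lists only describe these arrays.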

How the data were processed

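The deposited values are log2 expression of 45101 probe sets on each array. Per the submitters' processing notes, the authors used affy and RMA, with no versions given. RMA removes background, quantile-normalizes the arrays and summarises probes by median polish, so a shift of the whole transcriptome cannot be seen. Array medians were 6.05 to 6.07. Gene names came from the platform annotation, and 34958 probe sets with a single symbol gave 18194 genes. The sequences of promoters came from RefSeq (GRCm38.p6).

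Each gene took its probe set with the highest mean, and differences are 1 array minus another. The number of arrays limits the precision. The calls used a threshold of 2-fold and a floor of 6. All members were named with every probe set. Other pathway genes were named when 2-fold apart in a comparison, as the largest difference of a role, or as key enzymes. The members, lists and rules were chosen with earlier results of these data known. Counting was tested on simulated data. Alternatives were no floor, a floor of 7, values under 6 raised to 6, the mean over probe sets, no _a_at, _s_at or _x_at probe sets, cyclic loess and 1.5-fold. The tools were R 4.3.3 with limma 3.58.1 for the loess step and the additive fit, and Python 3.11.15 with pandas 2.3.3, numpy 2.4.6 and matplotlib 3.10.9 for the rest.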

Additional observations from a re-analysis of the deposited data

Results flagged for a closer look

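Ptger4, the EP4 receptor gene, was the one member whose brightest probe set had Apc differences of opposite sign in the 2 Vhl backgrounds. It was -0.38 for VhlF/F/Apcmin/+ minus VhlF/F and 0.38 for VhlΔIE/Apcmin/+ minus VhlΔIE. Neither reached 2-fold, each rests on 1 array per genotype, and the difference between the backgrounds was not tested. The Apc differences of the other 3 probe sets of Slco2a1 also had opposite signs, and the mean over its 4 probe sets differed by 0.42 and -0.06.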

How the results depend on the processing

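The count of 2 members at least 2-fold higher with Vhl deletion, Ptgs2 and Ptges, was 2 in both backgrounds under each alternative run except 1.5-fold. There Slco2a1 made it 3 without the Apc mutation, against 6.22% of all genes. The floor settings and leaving out _a_at, _s_at and _x_at probe sets could not change these 2 genes. Their brightest probe sets read above 6 on all 4 arrays and above 7 in both knockouts, and have plain _at names. Apart from the change of floxed array below, only the mean over probe sets and cyclic loess recomputed their differences. The count of 1 lower member, Ptger3, was 0 in both backgrounds at a floor of 7, with values under 6 raised to 6, with the mean over probe sets and without _a_at, _s_at and _x_at probe sets, each of which leaves out, caps or averages its only bright probe set. It stayed 1 when probe sets that mark several genes (_s_at, _x_at) alone were left out, an alternative chosen after the data were seen, since _a_at marks transcripts of 1 gene. The limma fit was added after the data were seen as well. At 1.5-fold the count of lower members was 2 without the Apc mutation, as Ptger4 passed, against 5.08% of all genes. At that fold 1 member, Ptges, was higher in VhlF/F/Apcmin/+ against VhlF/F, as 1.05% of all genes were. Under the 2-fold alternatives that kept both floxed arrays, 1.23% to 3.07% of all genes were higher by Vhl status and 0.835% to 1.68% lower. No called member changed sign. With the VhlF/F/Apcmin/+ array in place of the VhlF/F array, a choice made after the data were seen because of the liver transcripts, VhlΔIE had 2 members at least 2-fold higher and 1 lower. The shares of all genes were 3.14% and 1.45%. Vhl and Apc status differ together in that comparison, and it reuses arrays already compared, so it is no separate check of the Vhl difference. Ptges then differed by 1.80, Ptgs2 by 2.27, Ptger3 by -1.58, Slco2a1 by 0.29 and Ptger4 by -0.39. No paired analysis was possible because each genotype has 1 array and the labels carry no replicate numbers. Signals under 6 limit Ptger1, Ptger2 and the knockout values of Ptger3.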
